A study of Homo sapiens with 32 samples.

Results

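The arrays described here are the 8 titled as PBS-treated THP-1 cells, out of 32 arrays in the study. They were chosen by that title alone. THP-1 is a human monocytic cell line that was established from an acute monocytic leukaemia. All cells were grown in RPMI-1640 medium with 5% FBS, 2-mercaptoethanol, penicillin and streptomycin. They were then starved overnight in 0.1% FCS and kept for 24 h with PBS, with LPS at 100 ng/ml, with TGFβ1 at 1 ng/ml, or with LPS and TGFβ1 together. Each treatment had 8 arrays, and total RNA was hybridised to Illumina HumanRef-8 bead arrays. The 32 arrays lay on 4 chips, each with 2 PBS arrays. PBS arrays 1 and 2 were on chip 1, arrays 3 and 4 on chip 2, arrays 5 and 6 on chip 3 and arrays 7 and 8 on chip 4. The labels do not say whether the 8 arrays stand for 8 cultures. Each SD and p-value below therefore covers the spread among these arrays alone, and that spread may be technical.

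Monocytes arise in the marrow from progenitors that pass through a stage in which azurophil granules are filled with serine proteases, myeloperoxidase and related proteins. KIT, a receptor tyrosine kinase, belongs to stem cells and early progenitors, MS4A3 to the granulocyte-monocyte progenitor and promyelocyte, and CD14, CD163 and FCGR3A to more mature monocytes and macrophages. Leukaemia lines often stop at a point along this path, and the genes they express show where.

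The 8 arrays were not alike. The deposited intensities were on a linear scale. The background level of an array, taken as the mode of its dim values, was 1 on array 1 and 5 on arrays 3 and 4, against 19, 25, 21, 27 and 33 on arrays 2, 5, 6, 7 and 8. The first principal component of the 8 arrays held 58.6% of the variance, with arrays 1, 3 and 4 at one end and array 8 at the other. The second component held 20.04% and had its largest weight on array 8. The median difference between arrays over all probes, without sign, ran from 0.0945 on the log2 scale for arrays 3 and 4 to 0.444 for arrays 1 and 8. No pair of arrays held identical values. Arrays 1, 3 and 4 lay on 2 chips, and array 2 shared a chip with array 1. For many of the most variable genes, values are therefore given by array. Other genes are given as mean and SD, which can hide the same split. FLT3 read 478, 404 and 390 on arrays 1, 3 and 4 and 662 to 754 on the other 5. CSF1R read 2465, 2315 and 2298 against 1509 to 1863, and TLR4 104, 75.8 and 91.7 against 167 to 249. S100A9 read 3381 to 4002 on arrays 1, 3, 4 and 8 and 7391 to 7674 on the others.

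A probe was taken as above background on an array where it exceeded the array's background level by 3 SDs, with the SD taken from the values below that level. This put the threshold between 26.9 and 54.7. Between 11911 and 13572 of 24518 probes passed on a single array. With each gene read by the probe that had the highest mean over all 32 arrays, 8820 of 16920 genes (52.1%) were above background on all 8 PBS arrays. Another 2123 were above background on some of them and 5977 (35.3%) on none. Signals of different probes depend on how well each probe binds, so ranks below order probe signals and not amounts of RNA. A probe at background does not show that its transcript was missing: the probe of RPL10, a ribosomal protein gene that every cell uses, gave 9.98 and was below background on all 8 arrays, as was that of HLA-C at 14.3.

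The brightest named probes were those of the cytoskeleton and of protein synthesis, with 2 granule proteases among them. ACTG1, cytoplasmic gamma actin, was first at 45218 ± 6599 (mean ± SD, n = 8 here and below). OAZ1, the antizyme that restrains polyamine synthesis, EEF1A1, the elongation factor that brings aminoacyl-tRNA to the ribosome, TPT1 and ACTB followed, with EEF1A1 at 44457 ± 5412. Ribosomal protein genes held 8 of the first 20 places (RPS25, RPS12, RPL41, RPS27, RPS10, RPS29, RPL38 and RPS16) and 35 of the first 100. The first 20 also held LAIR1, an inhibitory collagen receptor of leukocytes, at 41307 ± 4932, FTL, the ferritin light chain, at 40835 ± 4896, and F2R, the thrombin receptor PAR1, at 38111 ± 4199. SLC7A5P2, a pseudogene, and CLUAP1, a cilium protein gene, completed them at 40535 ± 3815 and 39359.8 ± 4863. For these 2 and for RPL41 another probe of the same gene was dim, at 31.5 for SLC7A5P2, 203 for CLUAP1 and 55.6 for RPL41. The dimmest of the 4 RPS29 probes averaged 744. The places of these genes hold for the bright probe only. The 100 brightest genes held 20.6% of the summed signal, and the intensity at rank 100 was 18815 and at rank 500 was 5575.

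Granule genes of the promyelocyte reached the top of the ranking. Of 19 measured genes of the azurophil granule and promyelocyte list, 15 (78.9%, against 52.1% of all genes) were above background on all 8 arrays. PRSS57, BPI and DEFA1 were above background on some. DEFA3, nearly identical to DEFA1, was above on none, and their probes may share targets. CTSG, cathepsin G, was at rank 14 with intensities from 32499 to 44889.8 with a median of 41698. ELANE, neutrophil elastase, was at rank 16 and ran from 29144 to 46281 with a median of 40163. SRGN, the proteoglycan core on which granule proteases are packed, was at rank 25 with 35732 ± 3332.

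AZU1, azurocidin, an inactive relative of the serine proteases, gave 23199 ± 4008 and RNASE2, the eosinophil-derived neurotoxin, 21704 ± 4226. PRTN3, proteinase 3, ran from 10793 to 21009 with a median of 16344, and its lowest arrays were 8, 3, 4 and 1. CLEC11A and PLAC8 followed at 8903 ± 1825 and 8219 ± 1596. SERPINB10 was at 1157 ± 426 and LYZ, lysozyme, at 423 ± 75.7. DEFA4 and CEACAM6, which also belong to this list, varied between arrays and are described with the variable genes.

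Of the 3 genes taken as markers of the line, all were above background on all 8 arrays, at very different signals. MS4A3 ran from 6612 to 9348 with a median of 8599 and was at rank 310, although the dimmest of its 3 probes averaged 179. KIT ran from 331 to 2878 with a median of 2107, with arrays 1, 3 and 4 at 362, 379.7 and 331 and the other 5 at 2031 to 2878. MPO, myeloperoxidase, the enzyme that makes hypochlorous acid in the granule, ran only from 131 to 171 with a median of 147 and was at rank 7008 of 16920, on its single probe. Of the markers, MS4A3 was bright on all arrays, KIT split the arrays into separate sets and MPO was dim and even. MS4A3 split them too, by less, with 6612 to 7268 on arrays 1, 3 and 4 and 8268 to 9348 on the other 5.

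**Figure D1:**
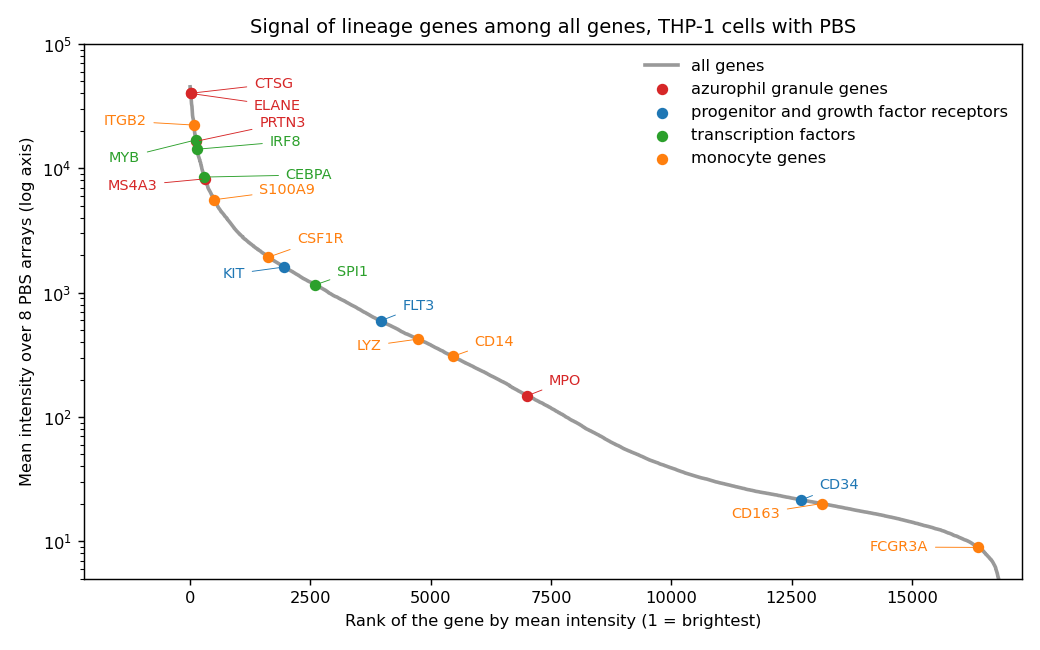
Mean intensity over the 8 PBS arrays (vertical axis, log scale) against rank among 16920 genes (horizontal axis, linear scale), with lineage genes marked. CTSG and ELANE stand at ranks 14 and 16, MS4A3 at 310, KIT at 1953 and MPO at 7008.

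Neighbouring genes on the chromosome carried part of this signal. AZU1, PRTN3, ELANE and CFD, the gene of complement factor D, are consecutive protein-coding genes on chromosome 19, and their probes averaged 23199, 16488, 39995 and 15499. PLPPR3, on the other side of AZU1, was at 746. The run of bright signals was not seen around CTSG on chromosome 14: CMA1, the mast cell chymase next to it, and GZMB, granzyme B, were below background on all 8 arrays, and GZMH was above background on 3. In the MS4A cluster of chromosome 11, MS4A3 (8229), MS4A6A (17055) and MS4A7 (5002) were bright, MS4A4A and MS4A14 were at 214 and 377, and MS4A1, MS4A5, MS4A6E, MS4A12 and MS4A13 were below background on all 8.

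Among surface genes of stem and progenitor cells, 8 of 14 measured (57.1%, against 52.1% of all genes) were above background on all 8 arrays. These were CD93 at 4915 ± 685, CSF3R, the G-CSF receptor, at 2617 ± 529.6, CSF2RA, the alpha chain of the GM-CSF receptor, at 2411 ± 443, SPN, KIT, FLT3, a receptor kinase of early progenitors, at 594 ± 146, ENG and CD38. CD34, PROM1 and THY1, which mark the earliest cells, were below background on all 8, with CD34 at 21.6 ± 11.9. IL3RA, IL5RA and CSF2RB, the shared beta chain, were above background on 7, 6 and 5 arrays.

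Transcription factors of the myeloid lineage were almost all measured above background, 23 of 26 (88.5%, against 52.1% of all genes) on all 8 arrays. MYB, which keeps progenitors dividing, was the brightest at 16914 ± 1361, and IRF8, which steers progenitors to the monocyte, followed at 14252 ± 870.1. CEBPA, the factor of the early myeloid step, was at 8507 ± 936, PBX3 at 8387 ± 361, GFI1 at 6423 ± 751 and LMO2 at 4219 ± 472. SPI1, which encodes PU.1, was at 1155 ± 269 and ran from 647 to 1476 with a median of 1186. THP-1 cells carry a fusion of KMT2A with MLLT3; the KMT2A probe gave 125 ± 23.4 and the MLLT3 probe was below background on all 8 at 17.7, as was TAL1 at 16.6. Which part of either transcript these probes read is not given in the sources used here.

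Of 26 monocyte surface genes measured, 15 (57.7%) were above background on all 8 arrays, 1 (CD86) on 3 arrays and 10 (38.5%) on none, shares near the 52.1% and 35.3% over all genes. The brightest was ITGB2, the shared beta chain of the leukocyte integrins, at 22281 ± 1901, while ITGAM and ITGAX, its alpha partners in CR3 and CR4, were at 424 ± 73.1 and 633 ± 266. LILRB1, an inhibitory receptor for MHC class I, was at 6617 ± 1448. CSF1R, the M-CSF receptor, CX3CR1, the fractalkine receptor, and FCGR1A, the high-affinity IgG receptor, were at 1928 ± 375, 1474 ± 191 and 1273 ± 554.

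CD14, the LPS co-receptor by which blood monocytes are counted, was low and uneven. It ran from 149 to 437 with a median of 341, with 160.2, 149 and 171 on arrays 1, 3 and 4 and 299.96 to 437 on the other 5, and the 2 sets did not overlap. The genes below background on all 8 arrays were CD163, the haemoglobin scavenger receptor, MRC1, the mannose receptor, MSR1, FCGR3A, the CD16 gene, CD80, TREM1, CLEC7A, SIGLEC1, CD300E and ADGRE1. Their means lay between 6.41 (MRC1) and 28.8 (SIGLEC1).

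Of 21 effector genes of monocytes, 14 (66.7%, against 52.1% of all genes) were above background on all 8 arrays, led by MS4A6A at 17055 ± 1687 and by S100A9 and S100A8, the chains of calprotectin, at 5591 ± 2055 and 5221 ± 1477. S100A12, their relative, was at 117 ± 64.3. TYMP, MNDA, ALOX5, F13A1, NCF1, CYBB and CSTA were above background on all 8 as well. VCAN and C1QC were above background on 6 arrays, FCN1, an early monocyte lectin, on 2 and MARCO on 1. C1QA, C1QB and VSIG4, genes of resident macrophages, were above background on none.

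Of 10 MHC class II genes, which present antigen to helper T cells, 4 (40%, against 52.1% of all genes) were above background on all 8 arrays. CIITA, their transactivator, was below background on all 8 at 9.21. CD74, the invariant chain, was at 1740.4 ± 626 and HLA-DRB1 at 1129.6 ± 140.2. HLA-DRA read 202, 178 and 196 on arrays 1, 3 and 4 and 414 to 619 on the others, without overlap. HLA-DQB1, HLA-DPB1 and HLA-DOA were below background on all 8. For MHC class I and its peptide loading, 10 of 11 genes (90.9%) were above background on all 8, with B2M at 10749.5 ± 1370.2.

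**Figure D2:**
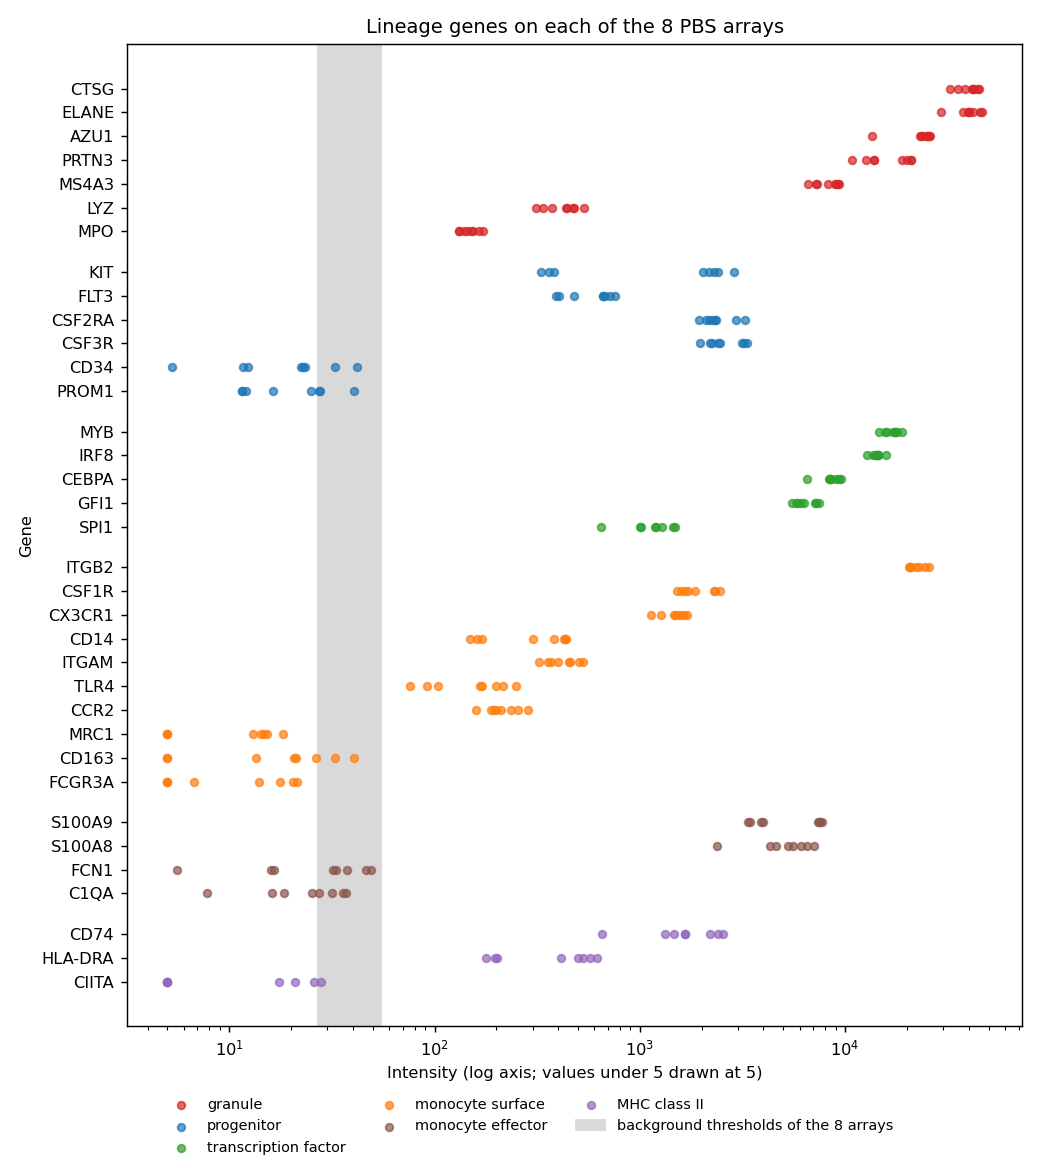
Intensity on each of the 8 PBS arrays (horizontal axis, log scale, values under 5 drawn at 5) for lineage genes (rows), with the range of background thresholds, 26.9 to 54.7, in grey. The granule proteases lie far to the right of the grey band, MPO just to its right, CD163 and CD34 within or left of it, and the KIT and CD14 points fall into separate clumps.

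Of 24 sensors and adaptors of the innate system, 15 (62.5%) were above background on all 8 arrays and 6 (25%) on none, against 52.1% and 35.3% over all genes. The list was led by NLRP3, the inflammasome sensor, at 2903 ± 218 and IRAK1 at 2649 ± 359.7. TLR2 and TLR4, the receptors of bacterial lipoproteins and of LPS, were low at 176 ± 37.2 and 159 ± 62.9, and LY96, which encodes the MD-2 partner of TLR4, was at 76.8 ± 25.1. TLR3, TLR5, TLR8, TLR9, TLR10 and AIM2 were below background on all 8. Of 15 TGF-β receptors and SMAD genes, 10 (66.7%) were above background on all 8, with SMAD4 at 1449 ± 273, TGFBR2 at 707 ± 64.6 and SMAD3 at 777 ± 226, and the TGFB1 probe itself was below background at 18.4.

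Without LPS the cells still gave strong probes for some cytokines. Of 21 cytokine and chemokine genes, 8 (38.1%) were above background on all 8 arrays and 47.6% on none, against 52.1% and 35.3% of all genes. Above background were IL18 at 11645 ± 2272, CCL5 at 6884 ± 1100.3 and CXCL8, the neutrophil chemokine IL-8, at 6136 ± 1035. IL10, an anti-inflammatory cytokine, at 3009 ± 683, TNF, CCL3, CCL2 and IL23A were the others. IL1B was at 61.4 ± 19.7, above background on 7 arrays. IL6, IL1A, IL12B, IL27, CXCL1, CXCL2, CXCL3, CXCL9, CXCL11 and CCL20 were below background on all 8. Of 39 interferon-stimulated genes, 28 (71.8%) were above background on all 8, with IFITM2 at 3771 ± 1078 and IFI6 at 2795 ± 628. IFIT5, GBP1 and OAS3 (7.69%) were above background on none.

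Genes of dividing cells were on after overnight starvation and 24 h in PBS. Of 31 genes of the cell cycle, 28 (90.3%, against 52.1% of all genes) were above background on all 8 arrays. CDC20, the activator of the anaphase-promoting complex, was at 14805 ± 1646, the replicative helicase genes MCM3 and MCM7 at 12592 ± 1754 and 9412 ± 885, and TOP2A, the DNA topoisomerase of dividing cells, at 6958 ± 1381. MKI67 was at 192 ± 15.1. E2F1 and the inhibitor CDKN2A were below background on all 8.

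Markers of other cell types were near background. None of 9 T cell markers was above background on any array, and their summed signal ran from 64.6 to 299 over the 8 arrays. Of the defining genes of other lineages, CD3E, CD3D, MS4A1, PAX5, HBB, GATA1, PF4, ITGA2B, EPCAM, KRT8, COL1A1 and CDH5 were below background on all 8. The exceptions above background on all 8 were CD79B at 181 ± 71.9 among 8 B cell markers, NKG7 at 513 ± 133 and KLRF1 at 135 ± 23.6 among 8 NK cell markers, EPOR among 10 erythroid markers, and GP9 and GP1BA among 7 megakaryocyte markers. PRG2, an eosinophil granule gene, MUC1, and VIM (2907 ± 1497) and PECAM1, which leukocytes also express, were the others. In a culture of many cells, fewer cells of a type and less RNA per cell cannot be told apart.

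Variation between the 8 arrays was small for most genes and large for a few. Its measure was the SD over arrays of log2(intensity + 50), an offset that damps the spread of dim probes. The median over the 18388 probes kept was 0.21. It was 0.10 within arrays 2, 5, 6 and 7 and 0.12 within arrays 1, 3 and 4. The 20 most variable genes had SDs from 0.94 (GBP2) to 1.58 (FOSB). Ranked by the coefficient of variation of the intensities instead, only 2 of the 50 most variable genes were the same. Of these 20, arrays 1, 3 and 4 all lay above the other 5 arrays for 15 and all below for 5. Over all 13386 genes kept, that order held upward for 13% and downward for 27.4%, and by at least 2-fold for 0.359% upward and 0.0822% downward. These genes include dim ones, and arrays 1, 3 and 4 had the lowest background levels, 1 to 5 against 19 to 33. The part of background in these shares was not tested. Since those arrays had been set apart on the same data, these counts are a description.

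**Figure D3:**
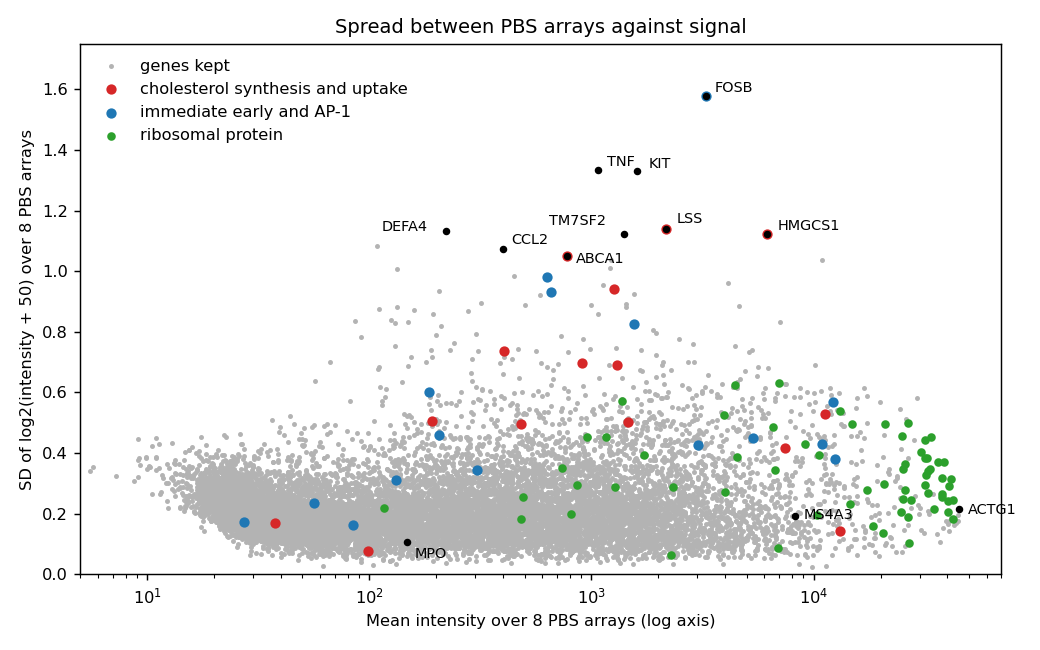
SD over the 8 PBS arrays of log2(intensity + 50) (vertical axis) against mean intensity (horizontal axis, log scale) for the 13386 genes kept. Cholesterol, immediate early and ribosomal protein genes are coloured. FOSB (1.58), LSS (1.14) and HMGCS1 (1.12) lie at the top, far above most genes.

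The cholesterol list held 4 of the 20 most variable genes, more than any other list. Cholesterol is made from acetyl-CoA by a chain of enzymes whose genes are switched on by SREBP-2, a factor that works together with the CCAAT-binding factor NF-Y. LSS, lanosterol synthase, read 4132, 3993 and 4502 on arrays 1, 3 and 4 and 585 to 1099 on the other 5. The dimmest of the 3 LSS probes averaged 92.9. HMGCS1, which makes HMG-CoA, read 11171, 12795 and 11886 against 2241 to 3235. TM7SF2, a sterol reductase gene outside the list, read 2819.97, 2730.4 and 2718 against 420.4 to 686. For all 3 genes the sets did not overlap, and array 8 was the lowest array for LSS and TM7SF2 but not for HMGCS1.

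DHCR7, the last step to cholesterol, read 2227, 2372 and 2339 on arrays 1, 3 and 4 against 566 to 696. ACSS2, which makes acetyl-CoA from acetate, read 7389, 7466 and 7702 against 1944 to 2110.5, and the dimmest of its 3 probes averaged 23.0. Of the 15 genes of the cholesterol list, 11 had arrays 1, 3 and 4 above the other 5 and 1 had them below. The shares over all genes kept were 13% above and 27.4% below. The gene of the list below was ABCA1, the exporter of cholesterol, a target of the LXR receptors, with 227, 253 and 222 against 950.3 to 1503. INSIG1, IDI1, MVD and SQLE had SDs of 0.69, 0.70, 0.74 and 0.42. FASN, the fatty acid synthase, was steady at 13092 ± 1323 with an SD of 0.14.

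The promoters of the 3 most variable sterol genes are shown because NF-Y sites are known in the promoters of this pathway. Each window runs from 250 bases before the RefSeq start to 50 bases after it in GRCh38.p14, 5′ to 3′ on the gene's strand, and capitals mark CCAAT or its reverse complement ATTGG. LSS lies on the minus strand at chr21:46228725-46229024, TM7SF2 on the plus strand at chr11:65111622-65111921 and HMGCS1 on the minus strand at chr5:43313363-43313662.
LSS: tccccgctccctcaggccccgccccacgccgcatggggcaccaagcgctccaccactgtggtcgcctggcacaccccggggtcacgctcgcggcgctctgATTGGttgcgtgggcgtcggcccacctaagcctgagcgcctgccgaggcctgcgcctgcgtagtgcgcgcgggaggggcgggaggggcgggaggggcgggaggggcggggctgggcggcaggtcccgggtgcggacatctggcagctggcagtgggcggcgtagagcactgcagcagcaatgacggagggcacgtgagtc
TM7SF2: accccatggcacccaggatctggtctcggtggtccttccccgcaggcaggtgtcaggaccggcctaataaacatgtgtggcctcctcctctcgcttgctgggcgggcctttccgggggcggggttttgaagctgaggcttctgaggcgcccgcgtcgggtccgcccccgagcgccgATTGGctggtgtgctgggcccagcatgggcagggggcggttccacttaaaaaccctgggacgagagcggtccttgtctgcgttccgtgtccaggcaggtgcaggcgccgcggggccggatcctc
HMGCS1: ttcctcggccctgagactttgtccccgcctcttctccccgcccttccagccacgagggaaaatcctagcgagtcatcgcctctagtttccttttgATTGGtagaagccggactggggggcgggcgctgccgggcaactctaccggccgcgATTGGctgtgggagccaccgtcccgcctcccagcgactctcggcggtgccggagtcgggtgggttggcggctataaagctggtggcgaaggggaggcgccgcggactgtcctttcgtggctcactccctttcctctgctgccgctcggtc

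The motif CCAAT, searched on both strands, was found once in the LSS window at base 101, once in that of TM7SF2 at base 177 and at bases 96 and 151 of that of HMGCS1. RefSeq gives HMGCS1 a second start, whose window held no match. Over the cholesterol list 12 of 17 windows held CCAAT (70.6%), from 10 of 12 genes with a window. The share was 34.6% of all 35116 windows and 35.5% of the windows of genes above background on all 8 arrays. It was 36.4% over the windows of the 50 most variable genes and 31.8% over those of ribosomal protein genes. A match of these letters is a description of the window and shows no binding.

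Immediate early genes, which encode short-lived factors switched on within minutes of a stimulus, had a median SD of 0.44 over the 16 genes kept, and 6 of them were among the 500 most variable genes (3.74% of the 13386 kept). Over all genes kept the median was 0.21. The cholesterol list had a median of 0.53, with 11 of 15 among the 500. Metallothioneins stood higher at 0.60 (5 of 7), and MHC class II genes were at 0.47 (4 of 7). FOSB, a partner of JUN in AP-1, had the largest SD of all genes kept at 1.58. It read 7917, 6799 and 6231 on arrays 1, 3 and 4, 1752 and 1656 on arrays 2 and 6, and 669, 584 and 606 on arrays 5, 7 and 8. Within arrays 2, 5, 6 and 7 it was still the most variable gene, with an SD of 0.80. EGR3, a zinc-finger factor, read 1401, 1191 and 995 against 262 to 346, and JUNB 1421, 1122 and 1079.7 against 240.1 to 386. The dimmer of the 2 EGR3 probes averaged 101. DUSP1, a phosphatase that turns off MAP kinases, read 3267, 2144 and 1999 against 589 to 1496. Of 16 genes of the immediate early list, 12 had arrays 1, 3 and 4 above the other 5 and 1 had them below. The shares over all genes kept were 13% above and 27.4% below. The gene of the list below was NR4A1, which was below background on all 8. FOS and EGR1 were bright on all arrays, at 7734 to 21576 and 7654 to 15848.

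The promoter of FOSB, on the plus strand at chr19:45467746-45468045 in GRCh38.p14, is shown because CREB and related factors bind TGACG sites in genes of this kind. Capitals mark TGACG or its reverse complement CGTCA.
FOSB: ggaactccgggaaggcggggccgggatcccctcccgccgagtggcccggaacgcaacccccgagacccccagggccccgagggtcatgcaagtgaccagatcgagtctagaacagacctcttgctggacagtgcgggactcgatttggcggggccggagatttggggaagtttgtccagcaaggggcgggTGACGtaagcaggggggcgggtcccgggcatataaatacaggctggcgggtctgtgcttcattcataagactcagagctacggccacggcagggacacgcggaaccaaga

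The motif TGACG, searched on both strands, was found once in the FOSB window, at base 191. It was in 9 of 15 windows of the immediate early list (60%), from 9 of 13 genes. It was in 24.6% of all windows, in 32.3% of those of genes above background on all 8 arrays, in 12 of 17 of the cholesterol list and in none of 10 of the azurophil list.

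TNF and PTGS2, inflammatory genes with unstable mRNAs, were also high on arrays 1, 3 and 4. TNF read 2992, 1981 and 1884 on arrays 1, 3 and 4 and 308 to 387 on the other 5. PTGS2, which encodes the prostaglandin synthase COX-2, read 2767, 2215 and 2012 against 469 to 658. CCL2, the monocyte chemoattractant, had the opposite order, at 159, 82.8 and 91.4 against 285 to 732, so the inflammatory genes did not share 1 order. MMP9, a gelatinase, was below background on arrays 1, 3 and 4, at 10.4 to 22.5, and read 165 to 246 on the others. GBP2, an interferon-induced GTPase, read 439, 389 and 402 against 59.1 to 96.9.

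KIT had the third largest SD, 1.33, and its order was the reverse of that of FOSB, with low values on arrays 1, 3 and 4. DEFA4, a granule defensin, read 518, 434 and 491 there and 59.0 to 79.3 on the other 5 arrays. CEACAM6, a granulocyte adhesion protein, read 1858, 2169 and 2216 against 509 to 611. HOXC4, a homeobox gene, was above background on arrays 1, 3 and 4 alone, at 266, 254 and 238. The dimmer of its 2 probes averaged 31.4. The granule list did not share 1 order. Of its 18 genes kept, DEFA4 and CEACAM6 included, 5 (27.8%) had arrays 1, 3 and 4 all above the other 5. All below were 3 (16.7%), MS4A3 among them, with an SD of 0.19. Over all genes kept, dim ones included, the shares were 13% and 27.4%. CTSG and MPO overlapped between the sets, with SDs of 0.16 and 0.11. BEX1, read at 20034, 19665 and 20401 against 3106 to 6547, DEFB1, an epithelial defensin, and ARRDC4, an arrestin-like gene with 144, 123 and 139 against 543 to 845, completed the 20.

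Array 8 differed in other genes. Of 64 ribosomal protein genes kept, 59 (92.2%) had their lowest value there, against 23.0% of all genes kept. The summed signal of the list was 790012 on array 8 and 1.25e+06 to 1.46e+06 on the other 7. Metallothioneins, which bind zinc and copper, were lowest on array 8 for 6 of 7 genes, with MT1X at 576 against 1521 to 2834 on the other 7. MHC class I genes were lowest there for 7 of 10. Array 8 was not low for all genes: it was also the highest array for 37.2% of all genes kept, and the median difference from the median of the other arrays was 0.12 on the log2 scale. Large differences ran downward, with 386 genes at least 2-fold below that median on array 8 and 9 at least 2-fold above. The background level was also highest on array 8, at 33, and the genes kept include dim ones. The part of background in the 37.2% and the 0.12 was not tested. NDUFA3, a subunit of respiratory complex I, read 1783 on array 8 and 6236 to 7336 on the other 7. ATP5MC2, of the ATP synthase, read 2946 against 9198 to 12716. TOPBP1, a large protein of the DNA damage response, went the other way at 2858 against 1010.0 to 1364. RNA quality measures of the samples were not analysed here, and their part in these values was not tested.

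**Figure D4:**
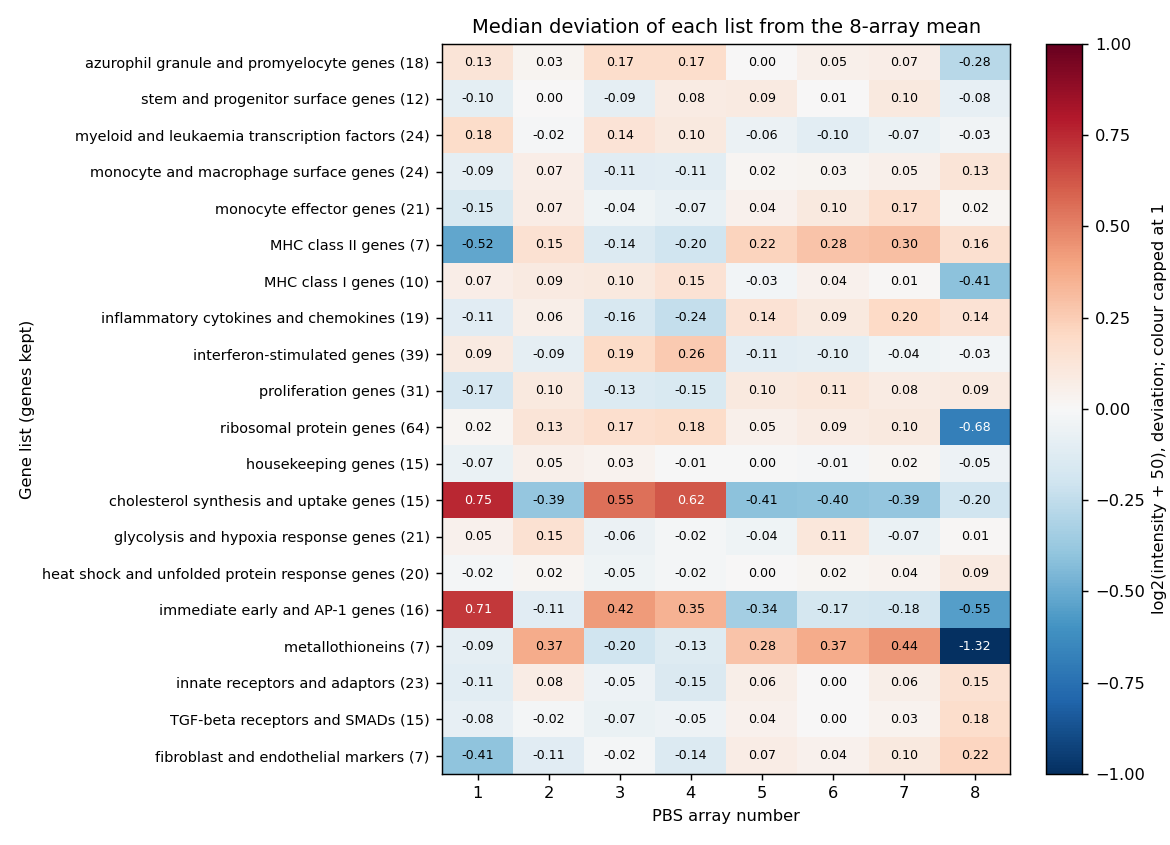
Median deviation from the gene means, in log2 units, of each gene list (rows) on each of the 8 PBS arrays (columns); red is above and blue below the mean. The cholesterol and immediate early rows are high on arrays 1, 3 and 4, and the metallothionein and ribosomal protein rows are low on array 8.

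The least variable genes above background on all 8 arrays were HNRNPM, a splicing protein, at 9471 to 9983 with an SD of 0.02, PLXNA3 (62.0 ± 2.20), ATF4, the factor of the amino acid response (11407 ± 226), CEP72 (104 ± 3.16) and POGK (2330.1 ± 52.9). PLXNA3 and CEP72 were dim, and the offset damps the spread of such probes. PLXNA3 read 60.1 on array 8, near the threshold of that array, 54.7. The usual reference genes were less even, with SDs of 0.16 for ACTB, 0.31 for GAPDH and 0.13 for HPRT1. GAPDH ran from 9271 to 18479.8 with a median of 15797.

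The same replicate numbers, 1 to 8, were carried by the 24 treated arrays, which the ranking of variation had not used. There, 5176 of 18388 probes (28.1%) differed between the 8 numbers after removal of the treatment effect (limma F test, adjusted p under 0.05). Of the 20 most variable genes of the PBS arrays 16 passed this test, and of the 50 most variable 35. The cholesterol list passed in 13 of 15 genes, the metallothioneins in 6 of 7, MHC class I in 8 of 10, the interferon-stimulated genes in 21 of 39, the immediate early genes in 6 of 16, the proliferation genes in 6 of 31 and the ribosomal protein genes in 8 of 64. Over all 13386 genes the share was 27.97%.

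ABCA1 (adjusted p = 1.38e-05), HMGCS1 (5.51e-05), LSS (5.9e-05) and TM7SF2 (0.000115) passed, as did TNF (0.000935), FOSB (0.0059), KIT (0.0134) and DEFA4 (0.0405). HOXC4 (0.151), PTGS2 (0.544), ARRDC4 (0.838) and GBP2 (0.841) did not. Among lineage genes TLR4 (5.69e-05), S100A9 (0.000164) and HLA-DRA (0.000238) passed, while MS4A3 (0.0543), MPO (0.0809) and CD14 (0.521) did not.

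The values of HMGCS1 show the order. Under LPS it read 18162 to 18758 on arrays 1, 3 and 4 and 4899.6 to 5299.9 on arrays 2, 5, 6 and 8. Under TGFβ1 it read 12986 to 14329.7 and 3097 to 3960.4 on the same numbers. Under both agents it read 16852 to 20149 and 4809.6 to 5118. Array 7 changed sides. It read 2884 in PBS and 3102 under TGFβ1, near the low arrays, and 17779.9 under LPS and 20001 under both, near the high ones. With numbers 2, 5, 6 and 8 alone, 123 probes differed between numbers, and with 1, 3 and 4 alone 221.

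**Figure D5:**
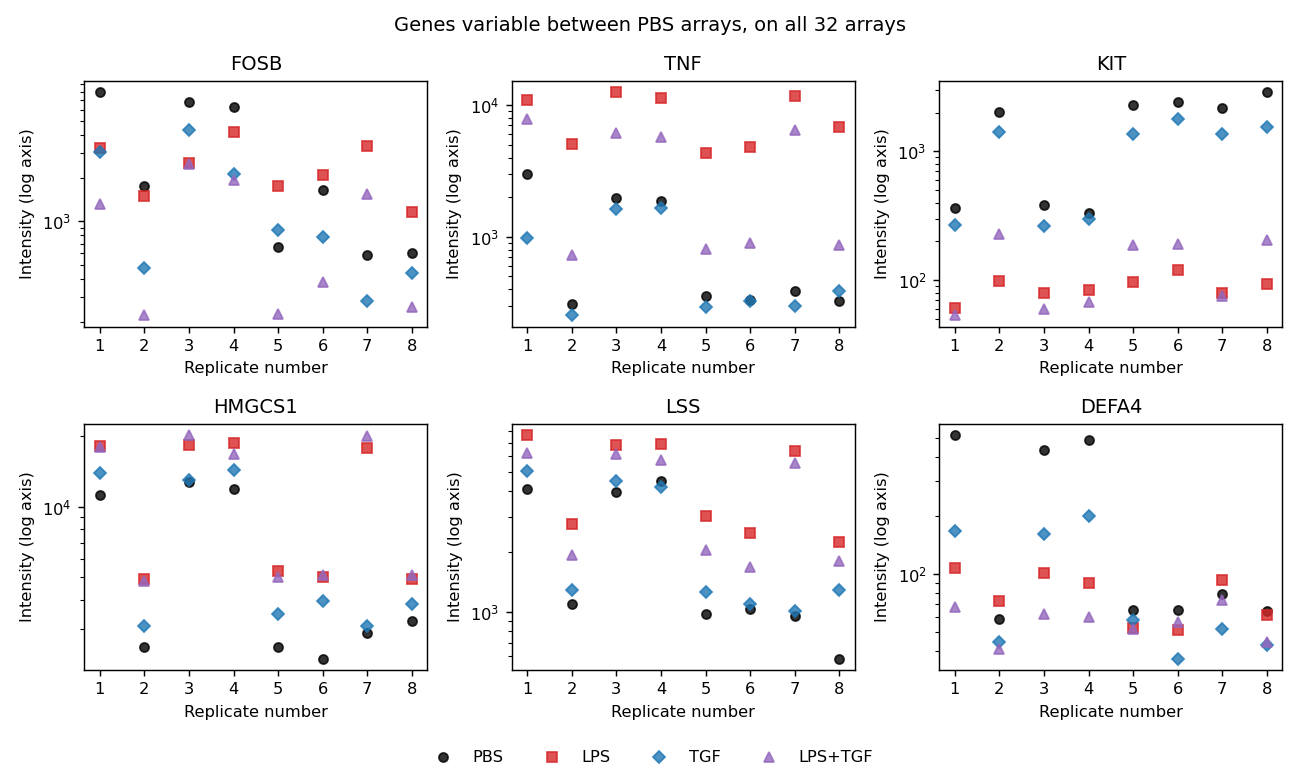
Intensity (vertical axis, log scale) of FOSB, TNF, KIT, HMGCS1, LSS and DEFA4 by replicate number (horizontal axis) in the 4 treatments, 1 point per array. HMGCS1 and LSS are high at numbers 1, 3 and 4 in all treatments, and number 7 of the LPS arrays and of the arrays with both agents reads with them.

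Differences between chips rested on few arrays. With 2 PBS arrays per chip, 11 of 18388 probes (0.0598%) differed between the 4 chips at an adjusted p under 0.05, and 3968 at an unadjusted p under 0.05. The 11 probes included 5 named genes, all high on arrays 3 and 4 of chip 2. PPFIBP1 read 349 and 357 there against 41.2 to 69.3 on the others (adjusted p = 0.00575). NFAT5, the factor of the response to osmotic stress, read 396 and 410.0 against 63.2 to 159 (adjusted p = 0.00806). ANKRD36B, ANKRD20A1 and NR2C2 were the others, with adjusted p from 0.0391 to 0.0497. The count rested on single arrays: it was 2353 without array 2, 2521 without array 7, 310 without array 1 and 22 without array 8. It was 0 without array 3 or array 4, with 1686 and 1457 probes at an unadjusted p under 0.05, and 2 without array 5 or array 6. Among the 24 treated arrays 4648 probes (25.3%) differed between chips, and of the 20 and 50 most variable genes 14 and 30 did. Each chip held 2 numbers with 3 treated arrays each, and this test counts the 6 arrays as independent. With the treated arrays of a number averaged to 1 value, as was tried after seeing the data, 57 probes differed between chips, and 2841 did at an unadjusted p under 0.05. The count of 4648 fell to 656 without number 3, 1149 without number 4, 1529 without number 5 and 1637 without number 6, and to 18 with numbers 2, 5, 6 and 8 only.

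The last comparison asks which genes set the PBS arrays apart from all treated ones. The labels place each treatment at the same positions of every chip, and the effects of position and of treatment cannot be told apart. Some labels of arrays with both agents repeat the position of a TGFβ1 array. The 3 comparisons share the PBS arrays. Against PBS, 20.9% of the 18388 probes were higher and 21% lower with LPS. The shares were 7.54% and 5.7% with TGFβ1, and 18% and 21.9% with both. Of 13386 genes, 542 were lower than in PBS under all 3 treatments and 531 higher under all 3.

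The 6 genes with the largest smallest fall were CAV1, IRAG2, BMP8B, EBF3, RET and NREP. CAV1, caveolin-1, gave 408 ± 32.3 in PBS, 71.1 ± 40.3 with LPS, 79.6 ± 13.7 with TGFβ1 and 31.9 ± 13.9 with both. It was above background on 4, 8 and 3 of 8 arrays under LPS, TGFβ1 and both. The log2 differences from PBS were -1.99, -1.83 and -2.50 (limma, SE 0.14, adjusted p = 9.28e-14, 3.87e-12 and 2.33e-16), and the within-chip log2 differences ran from -2.52 to -1.56, -2.11 to -1.66 and -2.67 to -2.27. RET, a receptor tyrosine kinase, gave 2295 ± 652 in PBS and 663 ± 367, 762 ± 172 and 287 ± 52.6 with the 3 treatments in that order. EBF3, a transcription factor related to that of early B cells, gave 613 ± 253 in PBS and 45.5 ± 15.7 with both agents, above background on 5 of those 8. NREP gave 6893 ± 861 in PBS and 1692 ± 518 with LPS.

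The 6 genes with the largest smallest rise were RGS1, CCL20, DNASE2, AXL, CLEC5A and SGK1. RGS1, which turns off G-protein signals, gave 43.8 ± 10.6 in PBS, above background on 4 arrays. It rose by 4.64, 3.76 and 6.65 on the log2 scale (adjusted p = 5.36e-17, 7.38e-14 and 2.21e-21). CCL20, a chemokine below background on all 8 PBS arrays, was at least 15.2-, 5.95- and 29.1-fold higher (adjusted p = 3.48e-13, 1.25e-08 and 2e-15). DNASE2, the acid nuclease of the lysosome, gave 129 ± 29.0 in PBS and 4055 ± 991 with TGFβ1. AXL, a receptor for apoptotic cells, gave 202 ± 73.6 in PBS and 1986 ± 553 with TGFβ1. SGK1, a serum- and glucocorticoid-regulated kinase, gave 226 ± 35.4 in PBS and 11442 ± 2165 with LPS.

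The granule list stood higher in PBS than with LPS. Of its 18 members kept, 14 were lower and 1 higher with LPS, with a median of -0.72 on the log2 scale against 0.04 over all genes. With TGFβ1 2 were lower and 1 higher (median -0.16 against -0.03), and with both agents 16 were lower and 1 higher (median -0.89 against -0.04). Among all probes 21% were lower and 20.9% higher with LPS. The shares were 5.7% and 7.54% with TGFβ1 and 21.9% and 18% with both. The TGFβ1 counts of the list rest on few genes. The member that was higher was PLAC8 each time, at 0.67, 1.21 and 0.98 (adjusted p = 0.00637, 2.66e-05 and 0.00014), and the members lower with TGFβ1 were MPO and SERPINB10. PRTN3 fell from 16488 ± 4133 in PBS to 4016 ± 581 with LPS and 3674 ± 1309 with both (adjusted p = 1.6e-11 and 1.57e-12). SERPINB10 had log2 differences of -2.96, -1.19 and -3.34.

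MPO fell by 1.29 on the log2 scale with LPS, to 31.2 ± 9.71 (adjusted p = 3.61e-16, 1 of 8 arrays above background), and fell by 0.51 with TGFβ1 (adjusted p = 3.42e-06). The within-chip log2 differences of MPO ran from -1.34 to -1.24 with LPS and from -0.63 to -0.40 with TGFβ1, the latter with adjusted p from 0.0585 to 0.283. With both agents MPO was below background on all 8 arrays and at least 2.25-fold lower (adjusted p = 3.21e-19).

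MS4A3 fell, with log2 differences of -3.87 with LPS (SE 0.37, adjusted p = 1.73e-10) and -2.85 with both agents (adjusted p = 1.09e-07), and its log2 difference with TGFβ1 was 0.20 (adjusted p = 0.826). Its within-chip log2 differences ran from -5.24 to -2.38 with LPS and from -3.74 to -1.89 with both. KIT fell, with log2 differences of -3.16 under LPS and -2.87 under both (adjusted p = 2.91e-07 and 1.71e-06), with a log2 difference of -0.52 under TGFβ1 (adjusted p = 0.55). Within chips its log2 differences ran from -4.23 to -1.62 under LPS, -0.76 to -0.30 under TGFβ1 and -3.84 to -1.84 under both. The TGFβ1 difference of KIT passed the test within chip 3 (-0.58, adjusted p = 0.0126), with numbers 2, 5, 6 and 8 only (-0.63, adjusted p = 0.000157) and with numbers 1, 3 and 4 only (-0.32, adjusted p = 0.026). Under LPS the KIT arrays read 60.2 to 119, below every PBS array. ELANE fell, with -0.74 under LPS and -0.77 under both (adjusted p = 5.5e-08 and 2.9e-08).

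CTSG fell, with -0.51 on the log2 scale under LPS (adjusted p = 0.0339) and -1.27 under both (adjusted p = 1.84e-06). The LPS call was lost without the arrays numbered 2, 5, 6 or 8, with adjusted p of 0.0881, 0.116, 0.114 and 0.142, and without PBS array 8 alone, with 0.052. Its sign turned within chip 2, at 0.17. Monocyte surface genes went the other way. Under LPS 19 of 24 were higher and 1, the chemokine receptor gene CCR2, was lower. Under TGFβ1 8 were higher, and under both agents 16. Of all probes, 20.9% were higher and 21% lower under LPS, and 7.54% and 18% were higher under TGFβ1 and under both. CD14 rose by 5.06, 1.94 and 4.74 (adjusted p = 5.78e-21, 1.83e-09 and 3.83e-20), with within-chip log2 differences from 4.73 to 5.60, 1.18 to 3.21 and 4.09 to 5.63. FLT3 fell, with -1.85, -0.91 and -2.31 (adjusted p = 1.86e-14, 8.5e-07 and 4.41e-17). MYB fell, with -1.44 under LPS and -1.90 under both (adjusted p = 4.01e-06 and 2.64e-08). With TGFβ1 MYB differed by -0.41 (adjusted p = 0.3), and this passed the test within chip 2 (-0.41, adjusted p = 0.0107), with the PBS and TGFβ1 arrays alone (adjusted p = 0.000337), with numbers 2, 5, 6 and 8 (adjusted p = 0.00304) and with numbers 1, 3 and 4 (adjusted p = 0.00165).

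Proliferation genes also stood higher in PBS, with 23 of 31 lower and 3 higher under LPS (median -0.51), 7 lower and 1 higher under TGFβ1 (median -0.25) and 21 lower and 2 higher under both (median -0.43). Those higher with LPS were CCND1, cyclin D1, CCND3 and CDKN1A, the inhibitor p21, with CCND1 also higher with TGFβ1 and CCND1 and CDKN1A with both. CDKN1A differed by 2.65 with LPS (adjusted p = 5.46e-22). All 39 interferon-stimulated genes were higher under LPS and under both agents, with medians of 3.52 and 3.45, against a median of 0.04 with TGFβ1. Beside these counts, 20.9% of all probes were higher and 21% lower under LPS. The shares were 7.54% and 5.7% under TGFβ1 and 18% and 21.9% under both. Over all genes the medians were 0.04, -0.03 and -0.04 with LPS, TGFβ1 and both.

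Fits within 1 chip had 2 arrays per group, and calls of the genes tried there were lost mostly on chips 1 and 4. With TGFβ1 they were lost on both of these chips for AXL, BMP8B, CCL20, CD14, EBF3, IRAG2 and RET, on chip 1 for CSF1R, on chip 4 for CAV1 and NREP and on all 4 chips for MPO. With LPS they were lost on chips 1 and 4 for AXL, BMP8B, CTSG and MYB, on chip 1 for IRF8 and KIT and on chip 4 for ELANE. With both agents they were lost on chips 1 and 4 for CTSG and MS4A3, on chip 1 for IRF8 and KIT and on chip 4 for AXL, ELANE and MYB. The adjusted p of these lost calls ran from 0.0508 to 0.472, with the direction kept in each. Calls were gained within chip 2 or chip 3 for FOSB and HMGCS1 under all 3 treatments, in addition to those of KIT and MYB with TGFβ1. For FOSB under LPS the signs were opposite. The log2 difference was -0.99 within chip 2 and 0.84 within chip 3 (limma, adjusted p = 0.021 and 0.0466).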

How the data were processed

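RNA of THP-1 cells was measured on 32 Illumina bead arrays, 8 per treatment, and the 8 PBS arrays are described. The authors' processed table, with intensities on a linear scale, was used as deposited. The submitters' processing notes name BeadStudio 3.2 without a role, and how background and normalization were handled is not given in the sources used here. A second deposited table has 64 sample columns whose names match no label, and it was not used.

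Treatment, replicate number and chip came from the titles and descriptions. Intensities were set to log2(intensity + 50), and the 25% of probes with the lowest mean over all arrays were left out of tests, which kept 18388 of 24518. Of all probes, 21826 had 1 gene symbol, 0 several and 2692 none; 0 symbols changed on updating. For each gene, the probe brightest on average across the 32 arrays was taken. Tests were run with limma 3.58.1 under R 4.3.3 (lmFit, eBayes and Benjamini-Hochberg adjustment over all probes kept): F tests over chips in the 8 PBS arrays, over chips and over replicate numbers in the 24 treated arrays with treatment as a covariate, and contrasts of PBS with each treatment on all 32 arrays. Other steps used Python 3.11.15 with numpy 2.4.6, pandas 2.3.3 and matplotlib 3.10.9. The contrast of PBS with LPS and the F tests over chips in PBS arrays and over numbers in treated arrays were tried on simulated data. The F test over chips in treated arrays and the other contrasts were not.

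Where every array of a group lay below background for a gene, its fold is a bound: the brighter group's mean log2 is set against a floor for the dimmer one, which on each array is the lowest signal that passed background, or the probe's own signal if larger. The number of arrays limits the precision. Genes named were the 20 brightest, the 20 most variable, the 5 least variable, the brightest and the undetected members of each list, the 6 genes most lower and the 6 most higher under all 3 treatments, and a set of lineage genes; other genes were named after their values were seen. The members and lists were chosen with earlier results of these data known. Alternatives were other offsets, filters, scalings and background thresholds, chip and replicate blocks, values within chips, and leaving out arrays. Another choice of probe per gene was not tried. Promoters are from RefSeq in GRCh38.p14.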

Additional observations from a re-analysis of the deposited data

Results flagged for a closer look

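In 9 of 63 genes examined, PBS array 8 lay below the other 7 by more than the critical share of 0.526 of the whole range on the log2 scale, where chance gives about 1 gene in 20. It was the lowest array in each. The share was 0.837 for AZU1, 0.539 for ELANE, 0.529 for SPI1, 0.649 for CEBPA and 0.546 for S100A8. It was 0.535 for RPL41, 0.561 for RPS27, 0.594 for RPL38 and 0.551 for RPS16. AZU1 read 13581 on array 8 and 23216 to 25772 on the other 7, and CEBPA 6487 against 8321 to 9517. RPL38 read 20948 against 33704 to 46632. All of these values come from 1 array, so they are not independent of each other, and their cause was not tested.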

How the results depend on the processing

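The count of 11 probes that differed between chips in PBS became 6 with an offset of 40, 17 with 100, 17 with no filter, 5 with the lowest 50% left out, 6 after quantile normalization and 22 without PBS array 8; it ran from 0 to 2521 on leaving out 1 array. The 4648 probes between chips in treated arrays became 10570 with no filter, 2476 with the lowest 50% left out, 2301 after quantile normalization, 57 with 1 averaged value per number and 18 with numbers 2, 5, 6 and 8 only, and ran from 656 to 6525 on leaving out 1 number. The 5176 between numbers became 9255 with no filter, 123 with numbers 2, 5, 6 and 8 and 221 with 1, 3 and 4. Within chips, LPS calls fell from 7705 to 1613 (chip 1) and 1792 (chip 4), TGFβ1 calls from 2434 to 142, 1579 and 132 (chips 1, 3 and 4), and calls with both agents from 7334 to 1546 and 1723 (chips 1 and 4), with fewer arrays in each fit.

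The median spread of 0.212 became 0.151 with an offset of 100, 0.161 after quantile normalization, 0.183 after scaling to 1 median, 0.164 within chips, 0.148 with arrays 2, 5, 6 and 8, 0.118 with 1, 3 and 4 and 0.102 with 2, 5, 6 and 7; leaving out 1 array gave 0.17884 to 0.22149. Of the 50 most variable genes, 2 were shared when ranked by the coefficient of variation, 5 with arrays 2, 5, 6 and 8 and 1 with arrays 1, 3 and 4, and 40 to 49 on leaving out 1 array. Quantile normalization moved the split of higher and lower calls from 3848 and 3857 to 3342 and 5134 for LPS, from 3313 and 4021 to 3091 and 5015 for both agents and from 1386 and 1048 to 1430 and 1417 for TGFβ1. Scaling to 1 median gave 3066 and 4741 for LPS. Probes above background on all 8 PBS arrays were 11427, or 12236 at 2 SDs and 10389 at 5 SDs.

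With the replicate number as a block, calls rose to 9129 (LPS), 3537 (TGFβ1) and 8663 (both), and with the chip as a block to 8826, 3201 and 8346. The numbers do not pair the samples by the labels: same-number deviations correlated at over 0.1 except for number 7, at -0.11 with LPS and -0.20 with both agents, and not every array correlated best with its own number. Of 1656 values for 23 genes, 1559 kept their direction and side of the threshold, 34 gained a call, 47 lost one and 16 turned sign. With LPS these were CTSG within chip 2 (0.17) and with numbers 1, 3 and 4 only (0.12), and FOSB within chips 1 and 2 (-0.74 and -0.99), with numbers 1, 3 and 4 only (-1.08), without number 7 (-0.13, the lowest on leaving out 1 number, the highest being 0.42) and without PBS array 8 (-0.043). FOSB with both agents turned within chip 4 (0.12). With TGFβ1 CTSG turned within chip 1 (0.050), ELANE within chip 4 (0.25) and with numbers 2, 5, 6 and 8 only (0.064), and IRF8 within chips 1 and 2 (-0.041 and -0.069), after quantile normalization (-0.022), without number 5 (-0.0028, against up to 0.037 without another) and with numbers 1, 3 and 4 only (-0.086). In 12 of the 16, neither value passed the test. The subsets by array number, the averages per number and the fits without PBS array 8 were chosen after seeing the data. The cause of these changes was not tested. The correction planned on the unmatched table (neqc) was not run. Probes near background have no order among themselves.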

Other observations

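Values outside the comparisons concern glycolysis and stress genes in PBS. Of 21 genes of glycolysis and the hypoxia response, 19 (90.5%, against 52.1% of all genes) were above background on all 8 arrays. ENO1, enolase, was at 21249 ± 1495 and LDHA at 15616 ± 2693. EGLN3, an oxygen sensor, was below background on all 8 at 24.2. VEGFA was at 214 ± 29.8 and SLC2A1, the main glucose transporter of dividing cells, at 2461 ± 229.8. ALDOC varied most in this list, with 2426, 2731 and 2828 on arrays 1, 3 and 4 and 824 to 1325 on the others.

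Of 20 heat shock and unfolded protein response genes, 19 (95%, against 52.1% of all genes) were above background on all 8. HSP90AA1 was at 18846 ± 965, HSPA8 at 15747 ± 2643 and XBP1, the factor of the secretory pathway, at 6519 ± 299. DDIT3, which encodes CHOP, was at 385 ± 48.5. CHAC1, a target of the same stress path, was above background on 1 array.

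Within arrays 2, 5, 6 and 7 the most variable genes after FOSB were TMSB4X, at 24.2, 116, 127 and 80.3 in that order, and UHMK1, at 223, 535, 518 and 412, with SDs of 0.57 and 0.51 on the log2 scale. The TMSB4X probe is dim for thymosin beta-4, an abundant actin-binding peptide of leukocytes.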
